A study of Mus musculus with 2 samples.

Results

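The small leucine-rich proteoglycans are secreted matrix proteins, and 7 of their genes were followed across the cell types of the injured mouse carotid artery: Dcn (decorin), Lum (lumican), Bgn (biglycan), Fmod (fibromodulin), Ogn (osteoglycin), Prelp and Aspn (asporin). They were chosen by symbol, and all 7 were found among the 27998 genes of both count tables. Single cells were profiled by droplet sequencing 28 and 14 days after a guide wire had been drawn through the carotid artery to strip its endothelium, a model in which the wall thickens from the inside. The 4-week group is 1 library and the 2-week group is 1 library, both from male C57BL/6J mice of 8 weeks of age, with n = 18 at each time in the series design. Both groups carry the wire injury and the ligation of the external carotid artery, no genetic change is named, and uninjured arteries were not analysed here.

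Each time rests on a lone library, so the spread between animals is unknown and no test between the times was made. Whether animals were pooled is not given in the sources used here, and no cell can be traced to an animal. The labels' source names the carotid artery, whereas the protocol for cell isolation describes grafts of the aorta and a dissection of the adventitia from the inner layers. The 4-week library held 83753250 UMIs (unique molecular identifiers, each a counted transcript) in 8565 barcodes, and the 2-week library 78773018 UMIs in 5864 barcodes. After filtering, 7422 cells remained at 4 weeks and 5152 at 2 weeks, with medians of 8710 and 11775.5 UMIs at 4 and 2 weeks, and 8 barcodes occurred in both libraries. Levels are CPM, a gene's UMIs scaled by the total UMIs of its class in that library, intervals are 95% intervals, and these cover counting error only. A CPM is a share of a class's own RNA, so a difference in an abundant gene moves the others.

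These proteoglycans have a curved core of leucine-rich repeats that binds collagen fibrils and helps to set their width and spacing. Decorin and biglycan carry chondroitin or dermatan sulfate chains, lumican and fibromodulin can carry keratan sulfate, and asporin lacks the attachment site for such chains that its nearest relatives have. Several members also bind growth factors of the TGF-beta family. In arteries, decorin is known mainly from the collagen-rich adventitia, and biglycan from the intima and media, where it can bind lipoproteins.

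The cells were clustered without the 7 genes and 12 other genes of the family, so that the clusters were not drawn by the levels described here. Of 27 clusters, 4 were named fibroblast-like from 10 markers that hold none of the 7, and these held 2871 cells at 4 weeks and 998 at 2 weeks. Cluster 0 was led by Dact2, Mrgprg and Pla1a and met 6 of 6 Pi16-high fibroblast markers. Cluster 3 was led by Cilp, Angptl1 and Fbln7 and met 4 of 5 markers of C7 and Inmt fibroblasts and 3 of 7 Thbs4 and Cilp markers. Cluster 4 was led by Cxcl13, Penk and Inmt and met 5 of 5 markers of C7 and Inmt fibroblasts. Of these markers, clusters 15 and 16, described below, met 4 and 3. Cluster 7 was led by Cthrc1, Ptx3 and Crabp2 and met 5 of 6 Cthrc1-high markers, and also 5 of 6 Pi16-high markers. Cluster 16, led by Pex5l and Tnfrsf11b and with Comp, Acan and Mgp among its top genes, met 6 of 10 fibroblast markers and 50% of a chondrocyte list, and is called by its number. Cluster 15 met 9 of 10 fibroblast markers and stayed unnamed because its cells were shallow. Smooth muscle cell-like cells numbered 74 at 4 weeks and 209 at 2 weeks.

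The make-up of the fibroblast-like cells was very different in the libraries. Cluster 0 made up 44.0% of them at 4 weeks and 20.0% at 2 weeks, cluster 3 made up 26.4% at 4 weeks and 8.52% at 2 weeks, and cluster 4 made up 24.7% at 4 weeks and 13.1% at 2 weeks. Cluster 7 made up 4.81% at 4 weeks and 58.3% at 2 weeks. Every sum over fibroblast-like cells below therefore mixes levels within clusters with the shares of the clusters, and values within clusters are given beside the sums.

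Across the named classes, the 7 genes marked stromal cells and were near background in lymphocytes, NK cells and macrophages. Together they took 18869 CPM of fibroblast-like RNA at 4 weeks and 15215 CPM at 2 weeks, and 4269.6 CPM of smooth muscle cell-like RNA at 4 weeks and 5283 CPM at 2 weeks. Thymocyte-like cells, which should lack these genes, showed 229 CPM at 4 weeks and 115 CPM at 2 weeks. Gene by gene the thymocyte-like level was between 0.590% (Dcn at 2 weeks) and 2.35% (Fmod at 2 weeks, from 3 UMIs) of the fibroblast-like level, which is read as background from free RNA. In macrophage-like, T cell-like and NK cell-like cells at both times and B cell-like cells at 4 weeks, the 6 members other than Fmod lay between 0.407% and 2.36% of the fibroblast-like level. Fmod had at most 7 UMIs in any of these classes at either time, up to 12.2% of its low fibroblast-like level. None of these is read as expression or as a difference between the times.

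**Figure D1:**
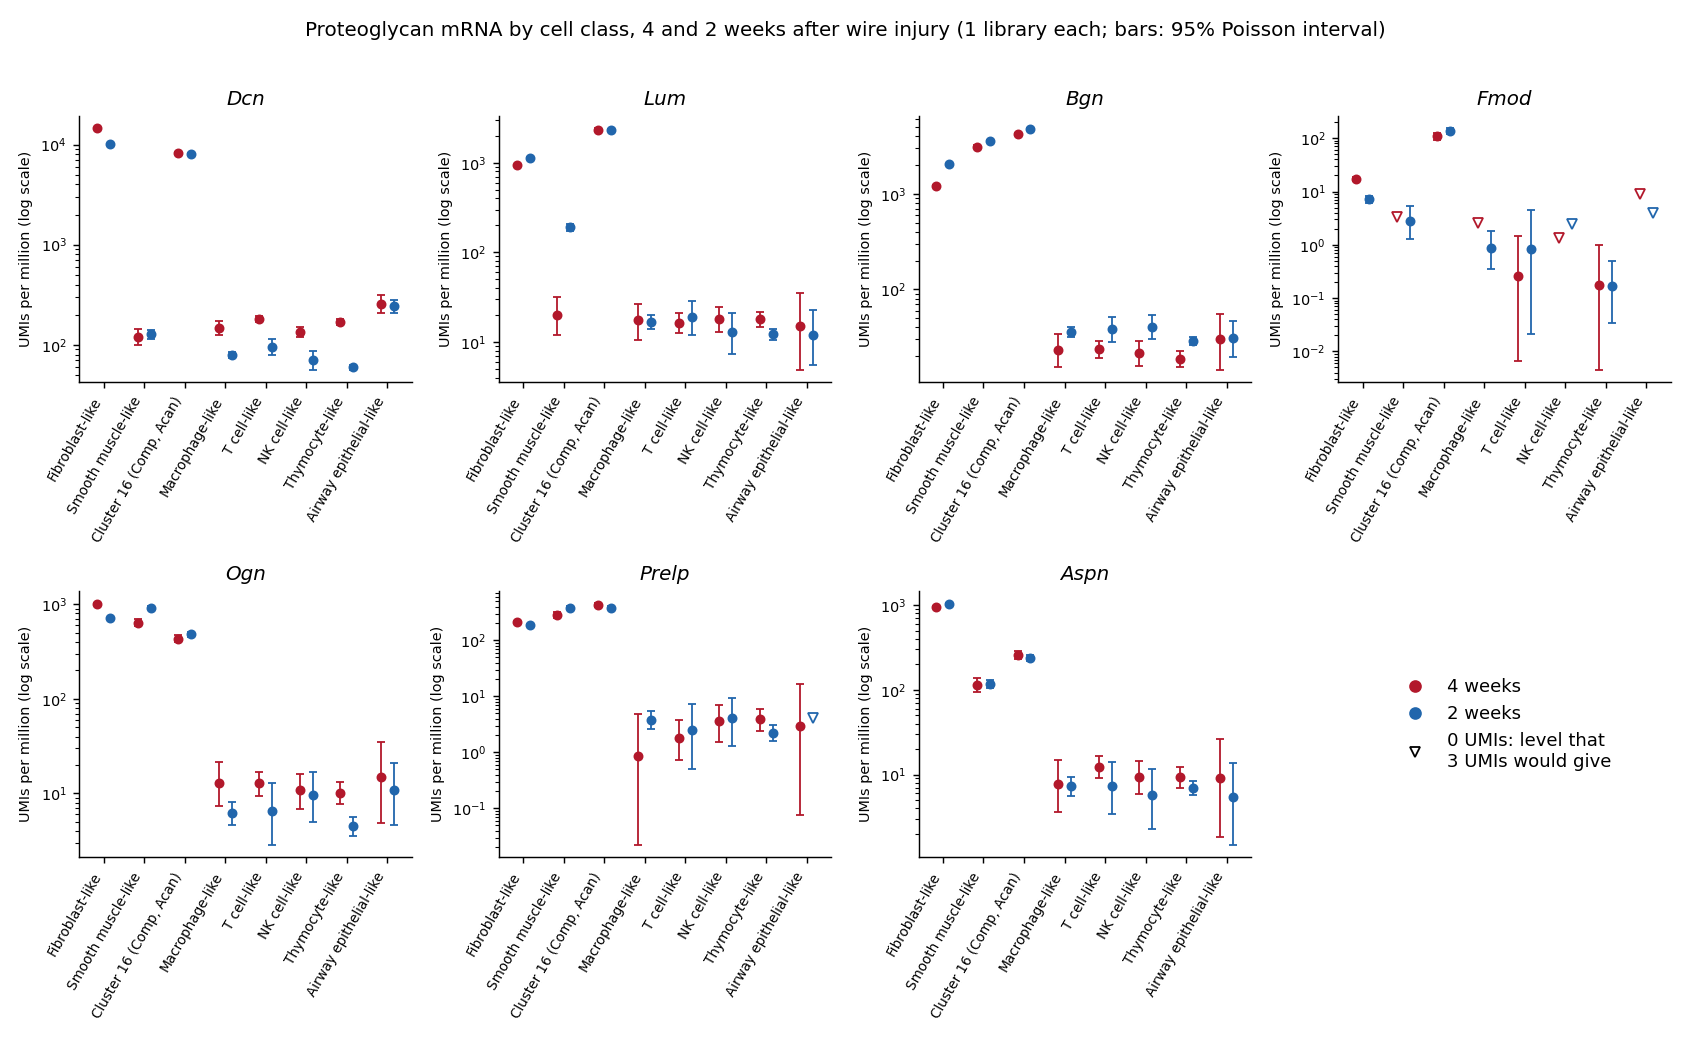
CPM of each member (log axis) in fibroblast-like, smooth muscle cell-like, cluster 16, immune and airway epithelial-like cells at 4 weeks (red, left of each pair) and 2 weeks (blue), with 95% Poisson intervals. Bgn, Ogn and Prelp are high in smooth muscle cell-like cells. Dcn there, at 121 CPM at 4 weeks and 127 CPM at 2 weeks, lies near or below the immune classes shown at 4 weeks and above them at 2 weeks.

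Fibroblast-like cells had the highest level among the named classes at both times for 4 of the 7 genes: Dcn, Lum, Fmod and Aspn. Bgn and Prelp were highest in smooth muscle cell-like cells at both times, and Ogn was highest there at 2 weeks. The order of Fmod rests on few counts, since smooth muscle cell-like cells had 0 Fmod UMIs at 4 weeks, which allows up to 3.32 CPM, and 9 UMIs at 2 weeks.

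Smooth muscle cell-like cells carried a partial set of the family. Bgn stood at 3090.1 CPM at 4 weeks and 3542 CPM at 2 weeks in these cells, above the 1212 CPM at 4 weeks and 2039.6 CPM at 2 weeks of fibroblast-like cells. Prelp, whose product has a basic end that binds heparin and heparan sulfate, stood at 285 and 384 CPM at 4 and 2 weeks, above the 213 and 188 CPM of fibroblast-like cells at 4 and 2 weeks. Ogn, which codes for osteoglycin or mimecan, stood at 640.2 CPM at 4 weeks and 919.6 CPM at 2 weeks, against 1014 CPM at 4 weeks and 708 CPM at 2 weeks in fibroblast-like cells. The times thus differed in which class was higher for Ogn. Dcn was at 121 and 127 CPM at 4 and 2 weeks, below the thymocyte-like level of 169 CPM at 4 weeks, above that of 59.6 CPM at 2 weeks, and far below its fibroblast-like level. Aspn, at 114 CPM at 4 weeks and 117 CPM at 2 weeks, was above its thymocyte-like level of 9.34 CPM at 4 weeks and 6.96 CPM at 2 weeks.

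Between the times, 1 of the 6 members tested in smooth muscle cell-like cells was called lower at 4 weeks, against 2.51% of all 7534 genes tested in these cells, and none was called higher, against 4.10%. The call needs a level at least 1.5-fold apart, an interval of the ratio that excludes 0 on the log2 scale, and at least 50 UMIs over both libraries. The member was Lum, with 19.9 CPM (18 UMIs) at 4 weeks and 189.6 CPM (604 UMIs) at 2 weeks, a log2 ratio of -3.25 (-4.01 to -2.58). Its interval at 4 weeks, 11.8 to 31.5 CPM, holds the thymocyte-like background of 18.0 CPM. After each cell was thinned to 2700 UMIs, 5 of 72 cells had a Lum UMI at 4 weeks and 27 of 207 cells at 2 weeks, and 11.1% of all Lum UMIs at 4 weeks and 12.6% at 2 weeks came from 1 cell. In thymocyte-like cells thinned alike, 4.94% at 4 weeks and 3.20% at 2 weeks had a Lum UMI. The median unthinned depth was 11685.5 and 15020.0 UMIs in smooth muscle cell-like cells, and 3022 and 4865.5 UMIs in thymocyte-like cells, at 4 and 2 weeks. Bgn (-0.20), Prelp (-0.43) and Ogn (-0.52) had log2 ratios below 0 with intervals that exclude 0, short of the call.

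The sum over fibroblast-like cells did not show a common direction. Of the 7 members, 1 was called lower at 4 weeks, against 8.18% of all 12508 genes tested in fibroblast-like cells, and 1 was called higher, against 4.41%. The intervals of 3 members lay below 0 and those of 4 above 0, all from more than 100 UMIs per library. Their median log2 ratio was 0.18, against 0.02 over all genes tested.

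Bgn was the member called lower. It stood at 1212 CPM (46172 UMIs) in fibroblast-like cells at 4 weeks and at 2039.6 CPM (49190 UMIs) at 2 weeks, a log2 ratio of -0.75 (-0.77 to -0.73). The lower level held in 3 of the 4 clusters: 448 CPM at 4 weeks against 786 CPM at 2 weeks in cluster 0, 2134 CPM at 4 weeks against 3127 CPM at 2 weeks in cluster 3, and 1179.7 CPM at 4 weeks against 1908 CPM at 2 weeks in cluster 4. Their log2 ratios were -0.81, -0.55 and -0.69, and clusters 0 and 4 passed the call, against 4.64% of genes called lower (2.01% higher) in cluster 0 and 5.36% in cluster 4. In cluster 3, where no member was called, 4.27% of genes were called lower and 3.76% higher. Cluster 7 went the other way, with 2667 CPM at 4 weeks and 2241 CPM at 2 weeks, a log2 ratio of 0.25 (0.22 to 0.28), where 5.31% of genes were called lower and 4.01% higher. Whether the clusters differ in this ratio was not tested, since each has 1 value.

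Fmod was the member called higher, and it is the sparsest. It stood at 17.3 CPM (659 UMIs) at 4 weeks and 7.09 CPM (171 UMIs) at 2 weeks, a log2 ratio of 1.29 (1.04 to 1.54). Its UMIs were concentrated in few cells: 1 cell held 8.65% of them at 4 weeks and 30.4% at 2 weeks, and 2.58% of thinned cells at 4 weeks and 1.11% at 2 weeks had any. Without the top cell of each library the log2 ratio was 1.68. In cluster 7 Fmod stood at 62.3 CPM at 4 weeks and 6.46 CPM at 2 weeks (202 and 108 UMIs), a log2 ratio of 3.27 (2.92 to 3.62) that passed the call, and of 3.74 without its top cell of each library, which held 28.2% of the UMIs at 4 weeks and 48.2% at 2 weeks. In cluster 3 it stood at 47.2 CPM at 4 weeks and 32.9 CPM at 2 weeks, a log2 ratio of 0.52 (0.09 to 0.97). Without the top cell of each library the ratio in cluster 3 was 0.99 (0.48 to 1.54). In clusters 0 and 4 Fmod stood at no more than 6.19 CPM. The call depended on where the fibroblast-like border is drawn: cluster 16 held 18.0% of all Fmod UMIs of the 4-week library and 57.3% of those of the 2-week library, and with it and cluster 15 included the log2 ratio was 0.24.

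**Figure D2:**
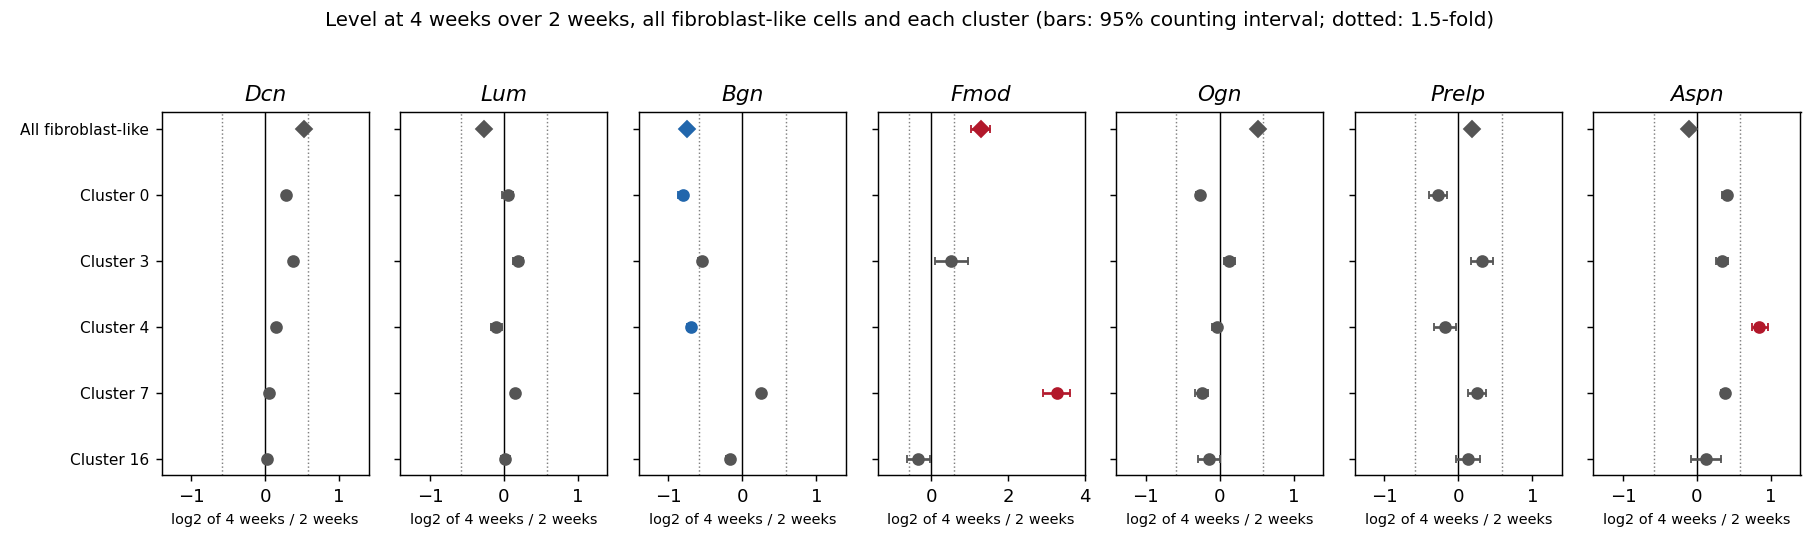
Log2 of the level at 4 weeks over the level at 2 weeks for each member in all fibroblast-like cells (diamonds), in each of their 4 clusters and in cluster 16 (circles), with 95% counting intervals and dotted lines at 1.5-fold. Red and blue points passed the call as higher or lower at 4 weeks, and groups with under 50 UMIs of the gene are left out; Aspn lies right of 0 in all 4 clusters but left of 0 in the sum.

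Aspn ran one way in the sum and the other way within clusters. Asporin is a TGF-beta-binding proteoglycan named for a run of aspartate residues. In all fibroblast-like cells it stood at 962 CPM at 4 weeks and 1036 CPM at 2 weeks, a log2 ratio of -0.11. Within every cluster it was higher at 4 weeks: 824 CPM at 4 weeks against 623 CPM at 2 weeks in cluster 0, 1266 against 1002 CPM in cluster 3, 676 against 376 CPM in cluster 4, and 1576 against 1215 CPM in cluster 7, at 4 and 2 weeks. The log2 ratios were 0.40, 0.34, 0.85 and 0.37, and only cluster 4 passed the call, against 2.47% of genes called higher there. Cluster 7 had the highest Aspn level at both times and was the cluster with the smaller share at 4 weeks. The mean of the 4 log2 ratios was 0.49, and with the 2-week levels weighted by the 4-week cluster shares of UMIs the log2 ratio was 0.44. At a finer clustering (resolution 2), cells led by Tmem178 and Cxcl12 stood at 267 CPM at 4 weeks and 263 CPM at 2 weeks. At 4 and 2 weeks, cells led by Ptx3 stood at 1368 and 977 CPM, and cells led by Krtdap at 794 and 574 CPM. Cells led by Cilp and Thbs4, at 1939 CPM at 4 weeks, numbered 295 at 4 weeks and 23 at 2 weeks. Whether finer make-up within clusters moves these ratios was not tested.

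Ogn had a higher sum at 4 weeks with no common direction within clusters. Its sum was higher at 4 weeks, 1014 CPM against 708 CPM at 2 weeks, with a log2 ratio of 0.52 (0.49 to 0.54). Within clusters it stood at 939 and 1135 CPM in cluster 0, at 1201 and 1096 CPM in cluster 3, at 1178 and 1213 CPM in cluster 4, and at 433 and 513 CPM in cluster 7, at 4 and 2 weeks. The log2 ratios ran between -0.27 and 0.13, with a mean of -0.11. The intervals of clusters 0 and 7 lay below 0, that of cluster 3 lay above 0, and that of cluster 4 held 0. Cluster 7 had the lowest Ogn level of the 4 at both times.

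Dcn was higher at 4 weeks in the sum and in each cluster, but by less within clusters. The summed level was 14511 CPM at 4 weeks and 10104 CPM at 2 weeks, a log2 ratio of 0.52 (0.52 to 0.53), short of 1.5-fold. At 4 and 2 weeks, cluster 3 had 19942 and 15294 CPM, cluster 4 had 16263 and 14682 CPM, cluster 0 had 11624 and 9557 CPM, and cluster 7 had 9480 and 9180 CPM. The log2 ratios ran from 0.05 in cluster 7 to 0.38 in cluster 3, with a mean of 0.21.

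Lum moved little within clusters, and Prelp had no common direction there. Lum stood at 939.7 CPM in the sum at 4 weeks and at 1133 CPM at 2 weeks, a log2 ratio of -0.27 (-0.29 to -0.25), while its 4 clusters ran between -0.10 and 0.19 with a mean of 0.07. Prelp stood at 213 CPM at 4 weeks and 188 CPM at 2 weeks, a log2 ratio of 0.18 (0.13 to 0.24). Its clusters lay on both sides of 0, at -0.28 in cluster 0, 0.31 in cluster 3, -0.18 in cluster 4 and 0.26 in cluster 7. All 4 intervals exclude 0, each ratio is short of the call, and the mean was 0.03.

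**Figure D3:**
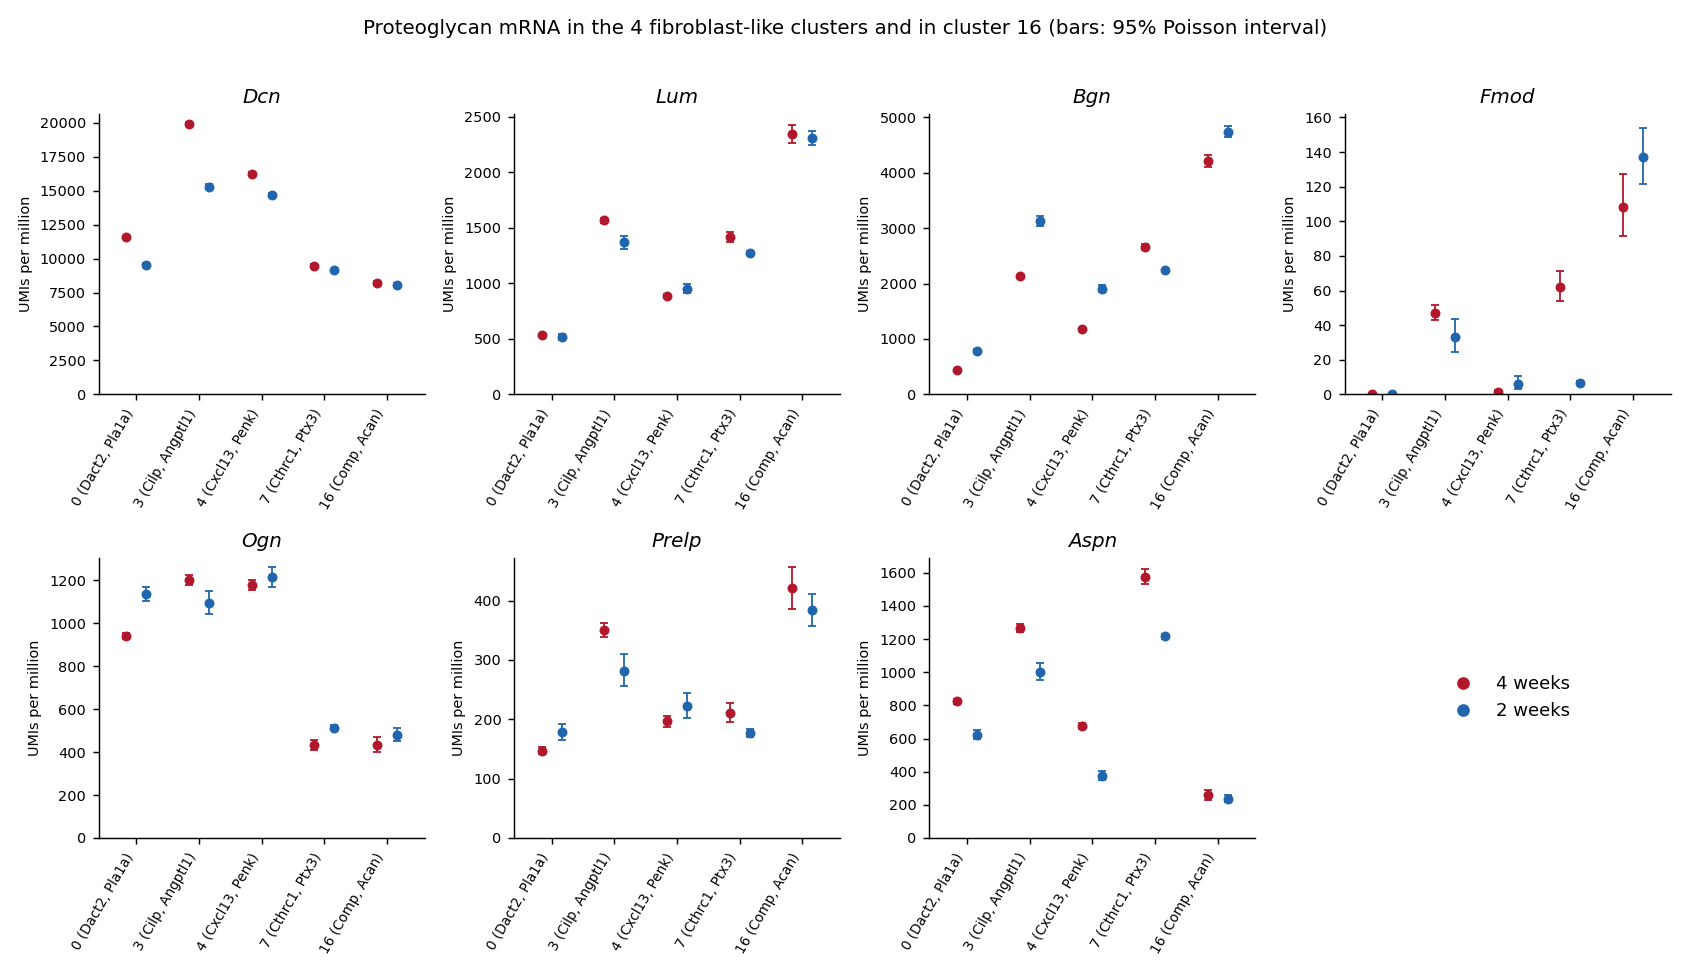
CPM of each member in clusters 0, 3, 4 and 7, which are fibroblast-like, and in cluster 16, at 4 weeks (red, left of each pair) and 2 weeks (blue), with 95% Poisson intervals. Lum, Bgn and Fmod are highest in cluster 16, Dcn in cluster 3, and Aspn in cluster 7, while Ogn is lowest in clusters 7 and 16.

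The 4 clusters fell in the same order at both times for Dcn, Lum and Aspn, while their order differed between the times for Bgn, Fmod, Ogn and Prelp. Cluster 3 had the highest Ogn level at 4 weeks and was below clusters 4 and 0 at 2 weeks, and cluster 7 was second to cluster 3 in Prelp at 4 weeks and lowest at 2 weeks. Some of these steps are small, and their intervals overlap. Ogn stood at 1201 and 1178 CPM in clusters 3 and 4 at 4 weeks. At 2 weeks it stood at 1135 and 1096 CPM in clusters 0 and 3. Prelp stood at 211 and 197 CPM in clusters 7 and 4 at 4 weeks. At 2 weeks it stood at 177 and 179 CPM in clusters 7 and 0. Dcn was highest in cluster 3, then 4, then 0, then 7 at both times, and the highest exceeded the lowest 2.10-fold at 4 weeks and 1.67-fold at 2 weeks. Lum ran from cluster 3 down to cluster 0 with a range of 2.93-fold at 4 weeks and 2.65-fold at 2 weeks. Bgn had a wider range, 5.95-fold at 4 weeks, with cluster 7 highest, and 3.98-fold at 2 weeks, with cluster 3 highest, and cluster 0 was lowest at both. Aspn ran from cluster 7 down to cluster 4 with 2.33-fold at 4 weeks and 3.23-fold at 2 weeks. Cluster 0 had the lowest Lum, Bgn and Fmod levels of the 4 at both times.

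Cluster 16 was high in some members and low in others. Lum stood there at 2343 CPM at 4 weeks and 2308 CPM at 2 weeks, Bgn at 4214 and 4744 CPM at 4 and 2 weeks, and Fmod at 108 and 137 CPM at 4 and 2 weeks, each above all 4 fibroblast-like clusters at both times. Prelp, at 420.4 CPM at 4 weeks and 384 CPM at 2 weeks, was also above them. Dcn, at 8229.8 CPM at 4 weeks and 8075 CPM at 2 weeks, was below all 4 clusters, and so was Aspn, at 258 CPM at 4 weeks and 237 CPM at 2 weeks. None of the 7 members was called between the times in cluster 16, against 4.99% of genes called lower and 3.80% called higher there. Fmod had a log2 ratio of -0.34 (-0.64 to -0.04), with 29.3% of its 147 UMIs at 4 weeks and 17.5% of its 275 UMIs at 2 weeks in 1 cell. Without the top cell of each library the ratio was -0.55 (-0.90 to -0.21). Comp and Acan, which are among the top 10 genes of this cluster, code for other proteins of cartilage-type matrix.

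2 further clusters held much Dcn but stayed unnamed. Cluster 15 was shallow, with medians of 2701 UMIs at 4 weeks and 1646.5 UMIs at 2 weeks, and had 16612 CPM of Dcn in 221 cells at 4 weeks and 11443 CPM in 42 cells at 2 weeks. Cluster 25, led by Apod and Chodl, had 36780.5 CPM of Dcn in 30 cells at 4 weeks and 13368 CPM in 52 cells at 2 weeks, the highest Dcn level of any cluster at 4 weeks. Its Lum was at 3444 CPM at 4 weeks and 1560.2 CPM at 2 weeks, and its Bgn at 632 and 1504 CPM at 4 and 2 weeks. With so few cells these are given as values only.

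The number of members seen per cell was counted after thinning every cell to 2700 UMIs and leaving out shallower cells. In fibroblast-like cells, 52.2% of 2828 cells at 4 weeks and 52.3% of 987 cells at 2 weeks had UMIs of 5 or more members. Among the 4 clusters, cluster 3 had the largest share, 74.9% at 4 weeks and 66.3% at 2 weeks, and cluster 0 the smallest, 39.1% and 37.6% at 4 and 2 weeks. All 7 were seen together in 36 cells at 4 weeks and in 2 cells at 2 weeks, a number that Fmod limits. At 4 and 2 weeks, Dcn was seen in 100% and 99.8% of cells, Ogn in 83.6% and 72.4%, Bgn in 77.7% and 89.97%, Lum in 78.1% and 79.9%, Aspn in 70.3% and 69.4%, and Prelp in 38.3% and 35.4%. In thymocyte-like cells, the Dcn share was 36.4% at 4 weeks and 20.6% at 2 weeks, and the shares of the other 6 were at most 11.5%. Pairs were seen in the same cell at close to the product of their shares. Lum and Bgn, for example, met in 62.8% of cells at 4 weeks, where the product is 60.6%, and in 73.7% at 2 weeks, where it is 71.9%. Fmod with Prelp departed most in ratio at 4 weeks, at 1.98% against a product of 0.989%, from 56 cells.

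Several members are neighbours in the genome (GENCODE M21, mm10, 1-based). Dcn lies at chr10:97479609-97518143 and Lum at chr10:97565128-97572703, both on the plus strand and 46984 bases apart with no coding gene between them. Prelp lies at chr1:133910304-133921414 on the minus strand and Fmod at chr1:134037254-134048277 on the plus strand, 115839 bases apart. Aspn at chr13:49544443-49567565 and Ogn at chr13:49608046-49624501 are on the plus strand and flank Omd (osteomodulin, another family member) at chr13:49582462-49592822. Bgn lies at chrX:73483602-73495933. Aspn and Ogn lie within the span of Cenpp on the opposite strand, and Prelp overlaps the antisense gene Gm15851. Whether the counting used strand is not given in the sources used here, so reads of these overlapping genes may not be told apart.

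Some neighbours had like patterns and others did not. Over the 8 profiles that the 4 fibroblast-like clusters give in the 2 libraries, Omd was the gene most like Ogn of 8419 genes, with r = 0.98 on the log2(CPM + 1) scale. Omd stood at 8.32 CPM at 4 weeks and 11.7 CPM at 2 weeks in cluster 7, against at least 32.3 CPM in each of the other 3 clusters. Aspn, on the other side of Omd, had r = -0.66 with Ogn and -0.64 with Omd. Dcn and Lum had r = 0.32 with each other, and r = 0.69 and 0.71 with the family gene Epyc at chr10:97644068-97682454. Prelp and Fmod had r = 0.76. The 8 profiles share 2 libraries and their depth, so these values are a description. Ogn and Omd parted in cluster 16, where Omd stood at 22.1 CPM (30 UMIs) at 4 weeks and 67.8 CPM (136 UMIs) at 2 weeks, a log2 ratio of -1.61, while the Ogn ratio there was -0.15.

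The stretches of 250 bases before the RefSeq starts of Aspn, Omd and Ogn are shown because the outer pair of these neighbours ran opposite to each other, and that of Bgn because it was the member called lower. They are from RefSeq on GRCm38.p6, plus strand, at chr13:49544193-49544442 (Aspn), chr13:49582212-49582461 (Omd), chr13:49607765-49608014 (Ogn) and chrX:73483351-73483600 (Bgn). Capitals mark matches, on either strand, to TATAAA, called the TATA box, to CCAAT, called the CCAAT box, to GGGCGG, called the GC box, and to TGANTCA, called the AP-1 site.
Aspn: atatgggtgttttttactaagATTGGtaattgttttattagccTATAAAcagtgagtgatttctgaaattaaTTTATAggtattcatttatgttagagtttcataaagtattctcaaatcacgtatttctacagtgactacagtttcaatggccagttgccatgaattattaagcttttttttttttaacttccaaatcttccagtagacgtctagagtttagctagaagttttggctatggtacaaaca
Omd: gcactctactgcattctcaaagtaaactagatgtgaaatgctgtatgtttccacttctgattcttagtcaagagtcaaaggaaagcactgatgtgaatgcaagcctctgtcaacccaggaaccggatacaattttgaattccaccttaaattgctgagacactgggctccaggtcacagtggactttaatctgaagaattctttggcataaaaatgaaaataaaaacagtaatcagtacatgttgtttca
Ogn: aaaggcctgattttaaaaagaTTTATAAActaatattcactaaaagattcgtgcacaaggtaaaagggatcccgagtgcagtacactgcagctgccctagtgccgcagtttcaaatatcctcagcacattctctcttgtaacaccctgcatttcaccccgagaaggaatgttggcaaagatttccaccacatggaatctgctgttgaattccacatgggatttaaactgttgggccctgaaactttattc
Bgn: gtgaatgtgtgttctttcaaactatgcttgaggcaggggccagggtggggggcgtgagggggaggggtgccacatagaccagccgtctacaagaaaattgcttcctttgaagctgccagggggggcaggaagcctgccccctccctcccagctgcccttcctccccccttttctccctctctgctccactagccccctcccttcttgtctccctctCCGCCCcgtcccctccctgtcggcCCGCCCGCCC

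Aspn had 2 matches to TATAAA, at 207 and 178 bases before its start, and 1 to CCAAT at 229 bases. Ogn had TATAAA on both strands in 2 overlapping matches, at 229 and 227 bases. Bgn had 3 matches to GGGCGG within its last 34 bases, and the 2 nearest to the start overlap. Omd held none of the 4 motifs in this window, and TGANTCA was in none of the 4 windows. Of 32851 windows of this length in the table, 12.4% hold TATAAA, 33.8% hold the motif CCAAT, 32.7% hold the motif GGGCGG and 6.75% hold TGANTCA. The share of G and C was 30% for Aspn, 38.4% for Omd, 42% for Ogn and 64.4% for Bgn, against a median of 52.4% over all windows. A match is a stretch of letters and not a shown binding site. Dcn and Lum are named without a window.

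Over all clusters with at least 50 cells in a library (43 profiles), the gene with the most alike pattern was named for each member by r on the log2(CPM + 1) scale. Dcn was closest to Serping1 (r = 0.98), which codes for the C1 inhibitor of the complement system. Aspn was closest to Col1a2 (0.98) and Lum to Col1a2 (0.96), which codes for a chain of type I collagen. Bgn was closest to Sparc (0.97), which codes for a collagen-binding matrix protein. Ogn was closest to Prrx1 (0.98), a mesenchymal transcription factor gene. Prelp was closest to Mxra8 (0.96) and then to Bgn (0.95), and Fmod to Pdgfrl (0.84). Most of the 43 profiles are of clusters where the members are near background, and all share 2 libraries. Within the 8 fibroblast-like profiles, Lum ran with Fmod (0.93) and with Bgn (0.93), and Ogn ran with Dcn (0.71) but not with Lum (-0.34) or Bgn (-0.31).

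Other family genes lay mostly above 0 in the sum, with Tsku the exception among those tested. Of the 12 listed, 6 had 50 UMIs in fibroblast-like cells, and of these 3 were called higher, against 4.41% of all genes tested, and none lower, against 8.18%, with a median log2 ratio of 0.62. Omd had 35.2 CPM at 4 weeks and 18.8 CPM at 2 weeks (0.91), Podn, which codes for podocan, had 133 and 74.5 CPM at 4 and 2 weeks (0.83), and Ecm2 had 165 and 99.2 CPM at 4 and 2 weeks (0.73). Epyc, for epiphycan, had 20.1 CPM at 4 weeks and 14.1 CPM at 2 weeks (0.52), and Tsku, for tsukushi, ran the other way, at 16.2 CPM at 4 weeks and 20.5 CPM at 2 weeks (-0.34). Within clusters the mean log2 ratio was -0.02 for Omd and 0.09 for Podn. For Epyc the mean was 0.10, from -0.16, 0.30, -1.09 and 1.36 in clusters 0, 3, 4 and 7. The Epyc intervals of clusters 4 and 7 exclude 0 on opposite sides. Ecm2 kept 0.64, higher at 4 weeks in all 4 clusters, at 0.44, 0.78, 0.64 and 0.68 in clusters 0, 3, 4 and 7. Chadl, at 10.6 CPM at 4 weeks and 7.71 CPM at 2 weeks (0.45), kept a mean of 0.47. It was at 0.41, 0.95, 0.46 and 0.06 in clusters 0, 3, 4 and 7, from few UMIs, and only the interval of cluster 3 excludes 0. Ecm2 lies beside Aspn on chromosome 13, and both were higher at 4 weeks within all 4 clusters, though their r over the 8 profiles was 0.24.

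**Figure D4:**
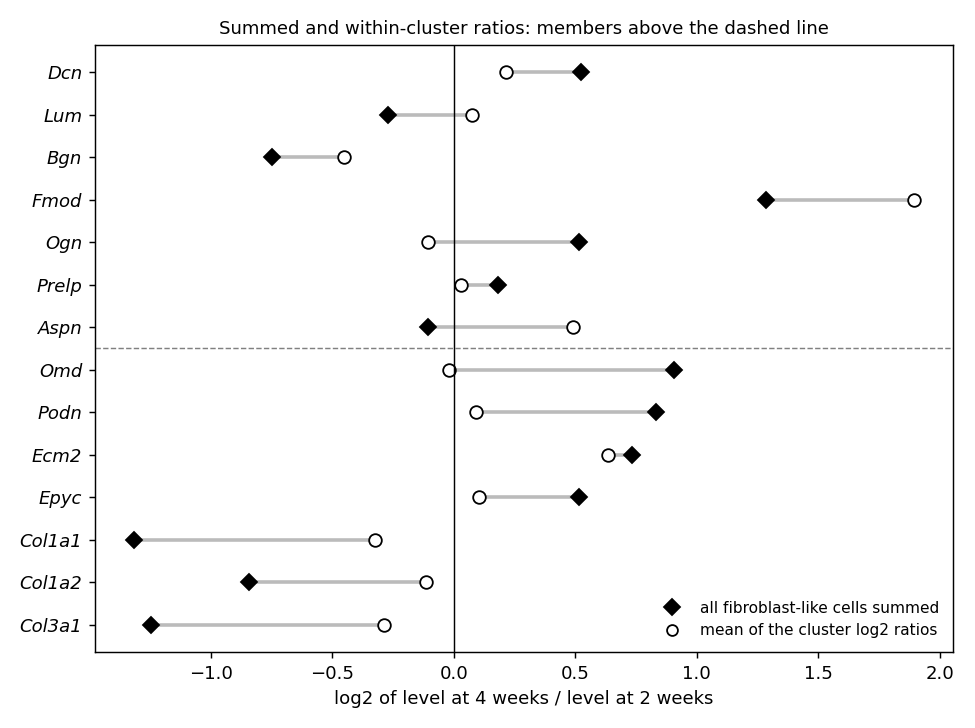
Log2 of the level at 4 weeks over the level at 2 weeks for the 7 members (above the dashed line) and for 4 other family genes and 3 fibrillar collagen genes, summed over fibroblast-like cells (filled diamonds) and as the mean of the log2 ratios of the clusters where the gene had 50 UMIs (open circles). For Ogn, Omd and the collagens the mean within clusters lies much nearer 0 than the sum, and for Aspn it lies at 0.49 against -0.11; Fmod averages 2 clusters.

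Fibrillar collagens, the partners of these proteoglycans, ran lower at 4 weeks in the sum. Of 20 collagen and crosslinking genes, 12 were called lower, against 8.18% of all genes tested, and none higher, against 4.41%, with a median of -0.76. At 4 and 2 weeks, Col1a1 had 3831 and 9543 CPM (log2 ratio -1.32), Col3a1 had 8242 and 19579.8 CPM (-1.25), Col5a3 had 81.8 and 279.6 CPM (-1.77), and Lox, a collagen crosslinking enzyme gene, had 61.9 and 138 CPM (-1.15). Averaged over clusters, Col1a1 was at -0.32, Col3a1 at -0.29, Col5a3 at -0.26 and Lox at -0.59. Col5a3 was at -0.40, -0.66 and -0.59 in clusters 0, 3 and 4. In cluster 7 it was higher at 4 weeks, at 585 and 381 CPM at 4 and 2 weeks (0.62, 0.54 to 0.69). That passes the call, against 4.01% of genes called higher there. Lox was at -0.93, -0.79, -0.84 and 0.18 in clusters 0, 3, 4 and 7. Per UMI of Col1a1, fibroblast-like cells held 3.79 UMIs of Dcn at 4 weeks and 1.06 at 2 weeks. At 4 and 2 weeks, the same ratio was 6.56 and 4.04 in cluster 0, 2.80 and 1.47 in cluster 3, 7.80 and 6.87 in cluster 4, and 0.971 and 0.764 in cluster 7, so it was higher at 4 weeks in each, as was that of Aspn. Bgn went the other way in clusters 0 and 4, at 0.253 and 0.332 UMIs per Col1a1 UMI in cluster 0 and 0.566 and 0.893 in cluster 4, at 4 and 2 weeks. In cluster 3 its ratios of 0.299 and 0.301 at 4 and 2 weeks were nearly equal. In cluster 7 its ratio was 0.273 at 4 weeks and 0.186 at 2 weeks. The ratios of Lum and Prelp were lower at 4 weeks in cluster 4, at 0.424 and 0.444 for Lum and 0.0943 and 0.104 for Prelp at 4 and 2 weeks. In the other 3 clusters they were higher at 4 weeks. For Ogn the ratio was higher at 4 weeks in clusters 0 and 3. It was nearly equal at 4 and 2 weeks in cluster 4, at 0.565 and 0.568, and in cluster 7, at 0.0443 and 0.0427. No intervals were computed for these ratios. UMI ratios between genes depend on capture and are read only between groups.

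Enzymes that build the sugar chains lay near 0 in the median. Of 26 genes for the linker and for chondroitin and dermatan sulfate, 23 could be tested, 4 were called lower, against 8.18% of all genes tested, and none higher, against 4.41%, with a median of -0.05. At 4 and 2 weeks, those called were Csgalnact1, which starts chondroitin chains, at 8.35 and 16.5 CPM (-0.99), Chsy1 at 12.8 and 20.5 CPM (-0.68), Ugdh, which makes UDP-glucuronate, at 347 and 548 CPM (-0.66), and Chpf at 57.5 and 90.5 CPM (-0.66). Averaged over clusters, Csgalnact1 was at 0.04 and Chsy1 at -0.12, while Chpf stayed at -0.49 and Ugdh at -0.45. Of 9 keratan sulfate genes 6 could be tested, and Chst1, a sulfotransferase, was called higher, against 4.41% of all genes tested, at 27.8 CPM at 4 weeks and 16.2 CPM at 2 weeks (0.78), with none called lower and a median over the list of -0.20. Averaged over the 2 clusters where it had 50 UMIs, Chst1 was at 0.09.

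Receptors and binding partners of the family were spread to both sides. Of 27 listed, 25 could be tested, 5 were called lower, against 8.18% of all genes tested, and 3 higher, against 4.41%, with a median of -0.01. At 4 and 2 weeks, Thbs1, for a thrombospondin, had 12.9 and 72.3 CPM (-2.48), Cd44, a hyaluronan receptor gene, had 80.9 and 233 CPM (-1.53), and Sparc had 7749.6 and 14694 CPM (-0.92). C1qa (-2.50) is a macrophage gene, at 0.403% of its macrophage-like level in these cells, and Kdr (-0.74) is an endothelial receptor gene with 33 UMIs at 4 weeks and 35 at 2 weeks. Averaged over clusters, Thbs1 was at -1.30, Cd44 at -0.18 and Sparc at -0.37. Thbs1 was at -1.28, -1.29 and -2.77 in clusters 0, 3 and 4, from no more than 114 UMIs per library. In cluster 7, which held 1592 of its 1744 UMIs at 2 weeks, Thbs1 was at 0.15 (-0.02 to 0.32). Cd44 was at -0.82, -0.25, 0.16 and 0.19 in clusters 0, 3, 4 and 7. Those called higher were Tnxb, for tenascin X, at 988 CPM at 4 weeks and 640.2 CPM at 2 weeks (0.63), the growth factor gene Bmp4 at 20.6 and 12.8 CPM at 4 and 2 weeks (0.69), and the purine receptor gene P2rx7 at 6.88 and 4.15 CPM at 4 and 2 weeks (0.73). Averaged over clusters, Tnxb was at 0.34, Bmp4 at -0.36 and P2rx7 at 1.66.

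**Figure D5:**
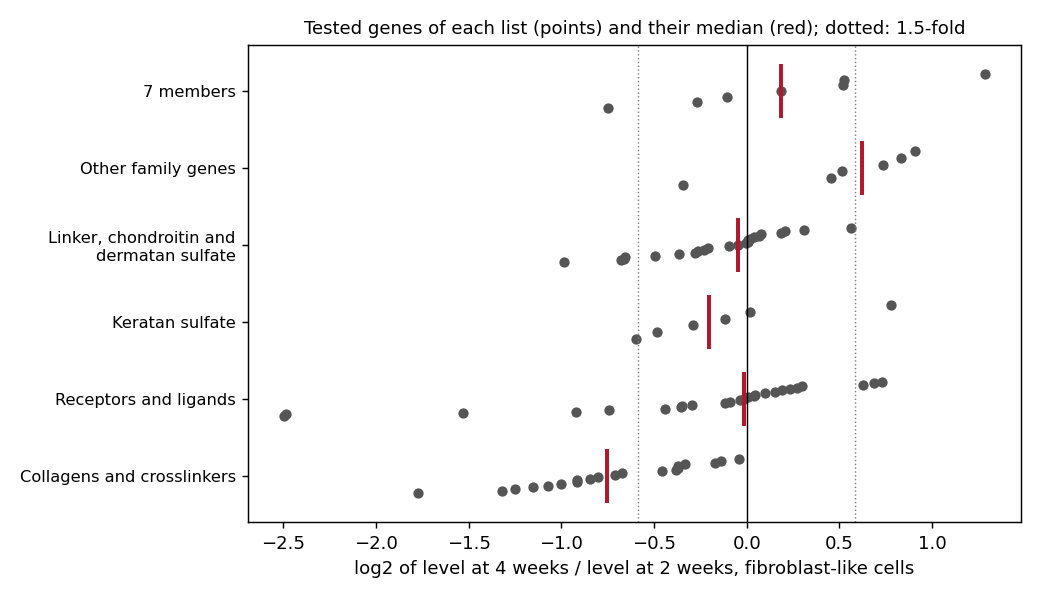
Log2 of the level at 4 weeks over the level at 2 weeks in fibroblast-like cells for the 7 members and for the tested genes of 5 related lists, with the median of each list in red and dotted lines at 1.5-fold. The members spread from -0.75 to 1.29 around a median of 0.18, and the collagen and crosslinking genes lie at or below -0.04.

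Markers of other cells in fibroblast-like cells also differed between the libraries, and their part in these results was not tested. Summed over each list, 9 smooth muscle markers stood at 66.5 CPM at 4 weeks and 229.9 CPM at 2 weeks, with none at 0, 9 macrophage markers stood at 106 and 166 CPM at 4 and 2 weeks, with none at 0, and 4 erythroid markers stood at 327 and 16.9 CPM at 4 and 2 weeks, with 2 of them at 0 at 2 weeks. The 4 parathyroid markers stood at 25.7 and 119.9 CPM at 4 and 2 weeks, and the 5 airway epithelial markers at 0.840 and 11.6 CPM at 4 and 2 weeks, with 1 of each list at 0 at 4 weeks. The median fibroblast-like cell had 12864 UMIs at 4 weeks and 22604.5 UMIs at 2 weeks. Without cells that had a UMI of Ptprc or of a haemoglobin gene, which left 1227 cells at 4 weeks and 494 at 2 weeks, 1 member was again called lower and 1 higher.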

How the data were processed

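The values the authors deposited are raw UMI counts by gene and barcode, 1 table per library. Per the file headers, the tables come from Cell Ranger 4.0.0. Per the submitters' processing notes, the genome was mm10. Read end and strand use are not given in the sources used here. Of 27998 genes, 27645 (98.74%) matched GENCODE M21.

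A kept cell had 300 or more genes, 500 or more UMIs and no more than 10% mitochondrial UMIs, and the highest Scrublet scores were removed at 0.8% per 1000 barcodes. This took 587 barcodes (6.85%) at 4 weeks and 275 (4.69%) at 2 weeks, where the caller's own threshold marked 271 at 4 weeks and 64 at 2 weeks. Both libraries were clustered together by Leiden (resolution 1, 30 components, 15 neighbours, 2000 variable genes without the family) in Python 3.11.15 with scanpy 1.11.5. With the family kept, 6 of its genes, among them Aspn, Dcn, Fmod and Lum, were among the variable genes. Clusters were named from 26 marker lists: at least 3 markers and 50% of a list, each in 10% of cells and 2-fold over the average of the remaining clusters, with a lead of 25 points over other classes. That lead, and leaving a shallow cluster unnamed, were chosen after the values were seen, as were the genes named to describe clusters. Of the other lists, the up to 4 tested genes with the largest log2 ratios are named, and Epyc, Tsku, Chadl, Tnxb, Bmp4, P2rx7, Kdr, Col1a2 and the pairs of members were added after their values were seen.

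UMIs were summed per class and library, with exact Poisson intervals, exact conditional binomial intervals of the ratios, and 0 UMIs read as allowing 3. The calling rule was also run on simulated counts that hold counting error only. That run cannot show how calls fare under the spread between animals or libraries. Cells were thinned to 2700 UMIs for shares. The members and lists were chosen with earlier results of these data known.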

Additional observations from a re-analysis of the deposited data

Results flagged for a closer look

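Bgn went in opposite directions in clusters of the same class. Its log2 ratio of 4 weeks over 2 weeks was 0.25 in cluster 7, led by Cthrc1, and -0.81 in cluster 0, led by Dact2. The intervals exclude 0 on opposite sides, but the difference between the clusters was not tested, because each cluster has 1 library per time. In cluster 7 the ratio is short of the 1.5-fold call. At a finer clustering (resolution 2), Bgn in cells led by Cxcl5 stood at 3107 CPM at 4 weeks and 2837 CPM at 2 weeks. In cells led by Ptx3 it stood at 1203 and 1164 CPM, and in cells led by Krtdap at 362 and 515 CPM, at 4 and 2 weeks. The Cxcl5 and Ptx3 pairs lie closer together in ratio than that of cluster 7. The Krtdap pair lies closer together than that of cluster 0 but further apart than that of cluster 7. Cells led by Mlana and Fbln7 stood at 2171 and 3313 CPM at 4 and 2 weeks. For cells led by Tmem178 and Cxcl12, the values were 1121 and 1718 CPM at 4 and 2 weeks. The part of finer make-up was not tested.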

How the results depend on the processing

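No paired analysis was possible because each time has 1 library. Of the 7 members, 6 kept the direction of their ratio in fibroblast-like cells under all 11 alternatives run for every member, and Prelp kept it under 10. The count called higher was 0, in place of 1, at resolution 0.5 (Fmod 0.32), at resolution 2 (Fmod 0.36) and with clusters 15 and 16 added (Fmod 0.24), the last chosen after seeing the data, as was leaving out the top Fmod cells. The count called lower was 0, in place of 1, at a fold of 2. The median log2 ratio of the members was 0.080 at resolution 0.5, -0.00086 at resolution 2 (Prelp), 0.10 with each library clustered alone, 0.26 without cells with a Ptprc or haemoglobin UMI and 0.11 with clusters 15 and 16, against 0.18. With clusters weighted equally it was 0.07, against -0.033 without doublet removal, -0.052 without cells with a Ptprc or haemoglobin UMI, 0.021 at 5% mitochondrial UMIs and 0.13 after thinning. The number highest in fibroblast-like cells, 4, was 2 at resolution 0.5, and 3 with each library clustered alone, without doublet removal and after thinning. With each library clustered alone, equal weights could not be computed, because clusters are not shared. The cause was not tested for any of these. Each class sum at each time is 1 library, so counting intervals understate the error, and Fmod is limited by few UMIs.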

Other observations

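Endothelial cells were not named as a class, since cluster 22 (45 cells at 4 weeks and 62 at 2 weeks) met blood and lymphatic endothelial markers alike. Bgn stood there at 717 CPM at 4 weeks and 401 CPM at 2 weeks, and Prelp at 194 CPM at 4 weeks and 120 CPM at 2 weeks, both far above their thymocyte-like levels of 18.9 and 28.9 CPM for Bgn and 3.88 and 2.23 CPM for Prelp at 4 and 2 weeks. Lum, at 20.2 CPM at 4 weeks and 8.12 CPM at 2 weeks, was near its background, and 1 cell held 45.5% of the Dcn UMIs at 4 weeks and 56.3% at 2 weeks.

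At a finer clustering (resolution 2), the cells led by Cilp and Thbs4, seen with at least 50 cells at 4 weeks, had the highest Aspn and Ogn levels of the 10 stromal clusters there, at 1939 and 1704 CPM. Among the stromal clusters with at least 50 cells in a library, the cells led by Mlana and Fbln7 had the highest Dcn level at both times, at 20549 CPM at 4 weeks and 15509 CPM at 2 weeks.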
